A study of Mus musculus with 21 samples.

Results

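The comparison set LB31 cells carrying working BLNK against LB31 cells carrying a BLNK mutant named YF, with 3 arrays on each side. These 6 arrays were taken by their titles from the 21 arrays of the series. LB31 is a mouse leukaemia line of the pre-B acute lymphoblastic type that was established from a Blnk knockout animal, so both groups share the absence of the endogenous adaptor. Per the labels, the cells of the first group were transduced with a pMY retroviral vector holding Blnk cDNA, and those of the second with pMY holding a loss-of-function Blnk cDNA. A further 3 arrays of LB31 with the empty pMY vector gave the level without any introduced BLNK. All LB31 cultures grew with 5 ng/ml of interleukin 7, and 100 ng of total RNA went into each labelling. The labels do not say which residues of the adaptor differ in YF. The labels do not say how many clones or independent transductions lie behind a group, nor whether the arrays of a group came from separate cultures. The p-values therefore measure the spread between these arrays, which may be technical, and a single cell line limits how far the values can be carried over. The question the design poses is which transcripts differ when the introduced adaptor can work and when it cannot.

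BLNK, also called SLP-65, is the adaptor that SYK phosphorylates on tyrosines after the pre-B cell receptor is engaged. Its phosphotyrosines gather BTK, PLCγ2, VAV and other SH2-domain proteins, and through them calcium, protein kinase C, ERK and NF-κB pathways are switched on. In pre-B cells this adaptor is known to limit proliferation in response to interleukin 7 and to allow differentiation, and mice without it can develop pre-B leukaemia.

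Transcripts were read on an Affymetrix mouse genome expression array, and the values below are log2 signals after quantile normalization over the 9 LB31 arrays, unless another scale is named. A gene was called when limma's moderated test gave an adjusted p under 0.05 (Benjamini-Hochberg over all genes tested). Of 13018 genes tested, 1177 were called between BLNK and YF (9.04%), of which 513 were higher with BLNK (3.94%) and 664 lower (5.1%). Counts called in the gene lists below are to be read beside these shares of all genes. The median change over all genes was 0.02, and the median size of a called change was 0.377. Of the called genes 93 (0.714% of those tested) also changed by at least 2-fold, 51 higher and 42 lower. In 1176 of the 1177 called genes the BLNK and YF arrays did not overlap. Genes picked by a small p nearly always separate in this way, so the count adds no support to the calls. In 22 of those 93 the lower group's mean lay under 3.88, the mean of the arrays' 40th percentiles that the filter on dim probe sets used. The balance between directions depended on the scaling. On the values as deposited the median of all genes shifted to -0.18 and 11.9% of 553 called genes were higher with BLNK, against 43.6% in the main setting. With each array centred on its median the shift was -0.06 and 19.2% of 682 were higher. Of the 513 rises 60 were still called as deposited and 131 with median centring, and of the 664 falls 396 and 479.

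**Figure D1:**
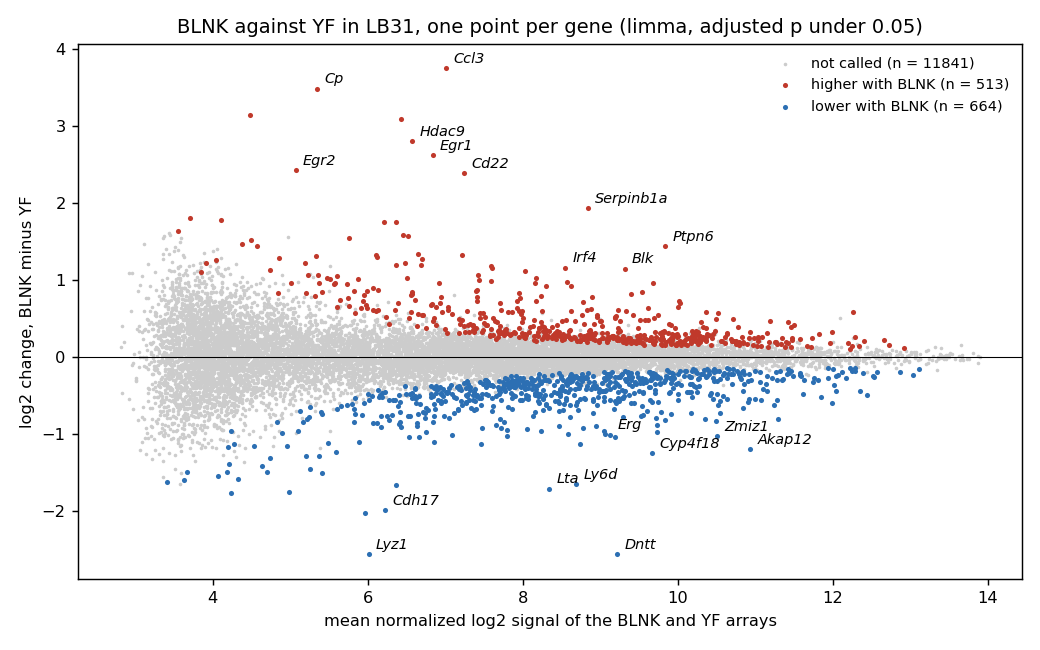
Log2 change, BLNK minus YF (vertical axis), against the mean normalized log2 signal of the 6 arrays (horizontal axis), 1 point per gene. Red points are the 513 genes called higher with BLNK, blue points the 664 called lower and grey points those not called. Some of the larger rises (Ccl3, Cp, Hdac9, Egr1) and falls (Dntt, Lyz1, Cdh17, Lta) are named, and the median size of a called change is 0.377.

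The arrays differed in deposited signal before normalization. The trimmed mean signal ran from 128 to 156 over the BLNK arrays, from 157 to 172 over the YF arrays and from 105 to 158 over the empty vector arrays. The median deposited signal was 16.7 ± 1.20 (SD, n = 3) for BLNK, 18.5 ± 0.569 for YF and 17 ± 2.26 for the empty vector. The 3'/5' signal ratio of Gapdh control probes, which follows RNA integrity and labelling, was 0.711 ± 0.019 for BLNK and 0.740 ± 0.0048 for YF, and that of beta-actin 1.18 ± 0.042 and 1.21 ± 0.012. The part of these differences in the gene calls was not tested. On log2 signals before quantile normalization, arrays of the same group correlated at 0.969 to 0.977 over probe sets, the empty vector group included. BLNK arrays correlated with YF arrays at 0.972 to 0.974. All 9 B-lineage defining markers that had a probe set of their own (among them Cd79a, Ebf1, Pax5, Vpreb1, Igll1 and Ighm) were above the 40th percentile on all 9 arrays.

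The targeted gene could not check the labels. Blnk has 1 probe set on the array, and where it lies relative to the deleted part and to the vector cDNA is not known from the labels. Its signal was 8.47, 8.45 and 8.56 with BLNK, 9.30, 9.49 and 9.37 with YF and 9.63, 9.64 and 9.66 with the empty vector. The signal was thus lowest in the cells labelled as carrying working BLNK, by 0.89 ± 0.06 (standard error; limma adjusted p = 4.66e-07) against YF, and it was present in cells that hold no introduced cDNA. In the marrow arrays of the series it differed between Blnk knockout and wild-type by -0.07 (limma adjusted p = 0.76). A probe set that does not fall in the knockout gives no measure of the introduced protein, and the level of either protein was not measured here. Cebpb, the C/EBPβ gene studied elsewhere in the series, differed by 0.02 ± 0.08 between BLNK and YF (limma adjusted p = 0.925).

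Receptor-proximal genes changed in opposite directions. A list of 33 tested genes of the pre-B cell receptor and its proximal signalling held 3 genes higher and 8 lower with BLNK. Of all genes 3.94% were higher and 5.1% lower. The list's median change was -0.13 against 0.02 for all genes, and it held both rises and falls. The rises were Ptpn6, Blk and Vav3. Ptpn6 encodes SHP-1, the phosphatase that damps receptor signals. It read 10.57, 10.52 and 10.58 with BLNK and 9.05, 9.06 and 9.24 with YF, a change of 1.44 ± 0.06 or 2.72-fold (limma adjusted p = 5.56e-09), and its second probe set changed by 1.03. Blk, a SRC-family kinase of B cells that phosphorylates receptor tails, read 9.89, 9.99 and 9.80 against 8.78, 8.68 and 8.76, a change of 1.15 ± 0.07. For both genes the empty vector arrays lay with the YF arrays, at 8.96 to 9.05 for Ptpn6 and 8.74 to 8.97 for Blk, and the BLNK arrays did not overlap either group. Vav3, a guanine nucleotide exchange factor recruited by BLNK, rose by 0.78 ± 0.16 (limma adjusted p = 0.00659), a call that ended on the values as deposited.

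Besides Blnk itself, the falls in this list were modest. The receptor's signalling chains Cd79a (Igα) and Cd79b (Igβ) fell by 0.48 ± 0.05 and by 0.30 ± 0.05. The inositol phosphatase Inpp5d (SHIP1) fell by 0.42, the protein kinases C Prkcb and Prkcd by 0.40 and by 0.37, the SRC-family kinase Fyn by 0.38 and the phospholipase Plcg2 by 0.26. The calls of Cd79b and Plcg2 ended on the values as deposited and with median centring. The kinases Syk and Btk, which act above and beside BLNK, were not called, with changes of -0.19 (limma adjusted p = 0.148) and -0.15 (limma adjusted p = 0.148). The surrogate light chain, the stand-in partner of the heavy chain before kappa and lambda are made, kept a high signal in both groups. Vpreb1 averaged 12.96 with BLNK and 13.01 with YF, a change of -0.05 that did not pass the test (limma adjusted p = 0.352). Igll1 (lambda 5) fell by 0.19 ± 0.04, and Vpreb3, counted in the same list of 3 tested genes, by 0.27 ± 0.04. Both calls ended on the values as deposited and with median centring.

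Inhibitory receptors held the largest receptor change. Cd22, the sialic-acid-binding receptor that carries SHP-1 to the B cell receptor, read 8.45, 8.40 and 8.47 with BLNK and 5.82, 6.28 and 6.05 with YF. That is a change of 2.39 ± 0.13 or 5.24-fold (limma adjusted p = 9.95e-08), and the second probe set changed by 1.92. The empty vector arrays read 5.60, 5.92 and 5.91, so the BLNK arrays stood apart from both groups. Cd72, another inhibitory receptor that binds SHP-1, rose by 0.82 ± 0.05 from a YF range of 8.94 to 9.06. Btla, an inhibitory receptor of the immunoglobulin superfamily, rose by 1.06 ± 0.22 from a dim level of 4.46 to 4.85, in a call that ended on the values as deposited. In the same list of 15 tested genes 3 fell: Ptpn22, a phosphatase of SRC-family and SYK kinases, by 0.87 ± 0.12, Siglecg by 0.53 and Ceacam1 by 0.48. Of all genes 3.94% were higher and 5.1% lower. The median of this list was -0.11, so the rises were those of 3 named genes and not of the list, and Fcgr2b, the inhibitory IgG receptor, changed by 0.16 (limma adjusted p = 0.204).

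Of the early response genes, Egr1 and Egr2, zinc-finger factors induced by ERK within minutes of receptor engagement, and Nr4a1 (Nur77), a nuclear receptor widely used as a reporter of antigen receptor signals, rose with BLNK. Egr1 read 8.07, 8.07 and 8.31 with BLNK, 5.59, 5.44 and 5.55 with YF and 5.22, 4.99 and 4.33 with the empty vector, and the BLNK to YF change was 2.63 ± 0.19 or 6.17-fold (limma adjusted p = 1.17e-06). Egr2 read 6.23, 6.47 and 6.15 with BLNK against 3.96, 3.44 and 4.16 with YF, a change of 2.43 ± 0.28 (limma adjusted p = 6.30e-05). The YF mean of 3.85 was under the filter level of 3.88, so this change rests on a dim comparison group, and the second probe set changed by 3.14. Nr4a1 read 6.40, 6.48 and 6.65 with BLNK and 5.49, 5.97 and 5.38 with YF, a change of 0.90 ± 0.16 (limma adjusted p = 0.0025). In Nr4a1 the YF arrays were the lowest of the 3 groups, since the empty vector arrays read 6.12, 6.02 and 6.13, and against the empty vector BLNK changed by 0.42 (limma adjusted p = 0.0961). Its call ended on the values as deposited.

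The other early genes were mixed. Of 24 tested, 5 were higher and 6 lower, with a median of -0.04, where 3.94% of all genes were higher and 5.1% lower. Per1, a clock gene with an immediate early promoter, rose by 0.55 and Ier2 by 0.27, and both calls ended with median centring and on the values as deposited. The AP-1 gene Jund fell by 0.82 ± 0.09, and Klf10, Csrnp1, Id3, Btg2 and Klf6 fell by 0.59, by 0.56, by 0.55, by 0.53 and by 0.51. The calls of Csrnp1, Btg2 and Klf6 each ended when single BLNK or YF arrays were left out. Fos changed by -0.03 (limma adjusted p = 0.97), Jun by -0.49, Junb by -0.08, Nr4a2 by -0.04, Nr4a3 by -0.23 and Klf4 by 0.34, none of them called. Egr3, of the same family as Egr1, read 3.95, 4.39 and 4.38 with BLNK and 2.13, 2.85 and 2.90 with YF, and its change of 1.61 ± 0.50 at this dim level did not pass (limma adjusted p = 0.0662).

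Both ERK phosphatases that were called fell. Dusp5, a nuclear phosphatase that inactivates ERK and is itself an ERK-induced gene, read 8.72, 8.53 and 8.75 with BLNK, 9.67, 9.67 and 9.78 with YF and 9.81, 10.05 and 9.80 with the empty vector, a change of -1.04 ± 0.08 (limma adjusted p = 1.27e-06). Dusp6, the cytoplasmic ERK phosphatase, fell by 0.35 ± 0.05, a call that ended on the values as deposited. Of 24 tested Ras activators and ERK feedback genes 2 were higher and 6 lower, where 3.94% of all genes were higher and 5.1% lower. Their median was 0.00. Rasgrp2, a calcium-responsive activator of RAP1, fell by 0.82 ± 0.05 and the GTPase-activating gene Rasa3 by 0.66 ± 0.07. Rasal3 and Elk4 fell by 0.37 and by 0.25 (the latter call ended under both other scalings), while Rasa2 rose by 0.51 and Sos2 by 0.29 in calls that ended under both other scalings. Dusp2, Spry1 and Spry2, also feedback genes, were not called, with changes of 0.08, 0.08 and -0.09.

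Promoter sequence was set beside these opposite directions of Egr2, Nr4a1 and Dusp5, since all are textbook targets of ERK or calcium signals. The 250 bases before the transcription start are shown from the RefSeq table (GRCm38.p6), and capitals mark a CArG box, the serum response factor motif, in Egr2 and Dusp5, and an EGR motif in Nr4a1. Egr2 lies on the plus strand and the window chr10:67537316-67537565 precedes the second of its 5 listed starts, with the box at -72 to -63. The Nr4a1 window is chr15:101266596-101266845, plus strand, with the EGR motif at -60 to -52 read on the other strand. The Dusp5 window is chr19:53528895-53529144, plus strand, with adjoining boxes at -82 to -73 and -72 to -63. The Egr2 start was picked because its window holds a box.
Egr2: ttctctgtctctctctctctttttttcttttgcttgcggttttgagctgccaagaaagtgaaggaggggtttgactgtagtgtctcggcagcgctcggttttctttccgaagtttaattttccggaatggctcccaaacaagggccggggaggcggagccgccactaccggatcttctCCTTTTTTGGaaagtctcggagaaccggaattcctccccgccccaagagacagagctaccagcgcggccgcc
Nr4a1: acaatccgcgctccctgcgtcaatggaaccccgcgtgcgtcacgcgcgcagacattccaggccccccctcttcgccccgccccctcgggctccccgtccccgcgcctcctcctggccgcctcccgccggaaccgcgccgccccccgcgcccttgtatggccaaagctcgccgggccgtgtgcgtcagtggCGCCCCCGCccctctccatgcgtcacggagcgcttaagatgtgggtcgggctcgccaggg
Dusp5: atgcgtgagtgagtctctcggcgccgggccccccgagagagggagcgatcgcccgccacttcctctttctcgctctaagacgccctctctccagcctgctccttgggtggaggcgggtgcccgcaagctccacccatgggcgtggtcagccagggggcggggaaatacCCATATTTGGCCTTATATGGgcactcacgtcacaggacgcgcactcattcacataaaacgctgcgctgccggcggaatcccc
Boxes of the same kind thus stood before a gene that rose and a gene that fell, and a match is a description, not a binding site.

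Over the table, 971 of the 1177 called genes and 10517 of the 13018 tested genes had a promoter, read from 250 bases before to 50 after the first listed start, 300 bases in all, on both strands. The ETS motif CCGGAAGT was present in 10.0% of the promoters of risen genes, 4.7% of fallen genes and 7.77% of all tested genes. The cAMP response element TGACGTCA was in 3.83%, 1.27% and 3.11%, and the MYC E-box CACGTG in 13.2%, 9.4% and 9.78%. In the other direction, the AP-1 motif TGACTCA was in 2.39% of risen, 4.34% of fallen and 3.69% of all, the FOXO motif TGTTTAC in 1.2%, 2.89% and 2.61%, and the IRF motif in 2.15%, 3.98% and 2.93%. The EGR motif (GCGGGGGCG or GCGTGGGCG) was in 6.94%, 6.87% and 6.11%, and the CArG box in 0.718%, 0.723% and 1.25%. The NF-kB and MEF2 motifs were in at most 0.239% of any of these sets. None of the spelled motifs contains another. The shares are given with no test. They rest on the calls of the main setting and were not recomputed under the other scalings. There 60 (as deposited) and 131 (median centring) of the 513 rises were still called, and 396 and 479 of the 664 falls.

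**Figure D2:**
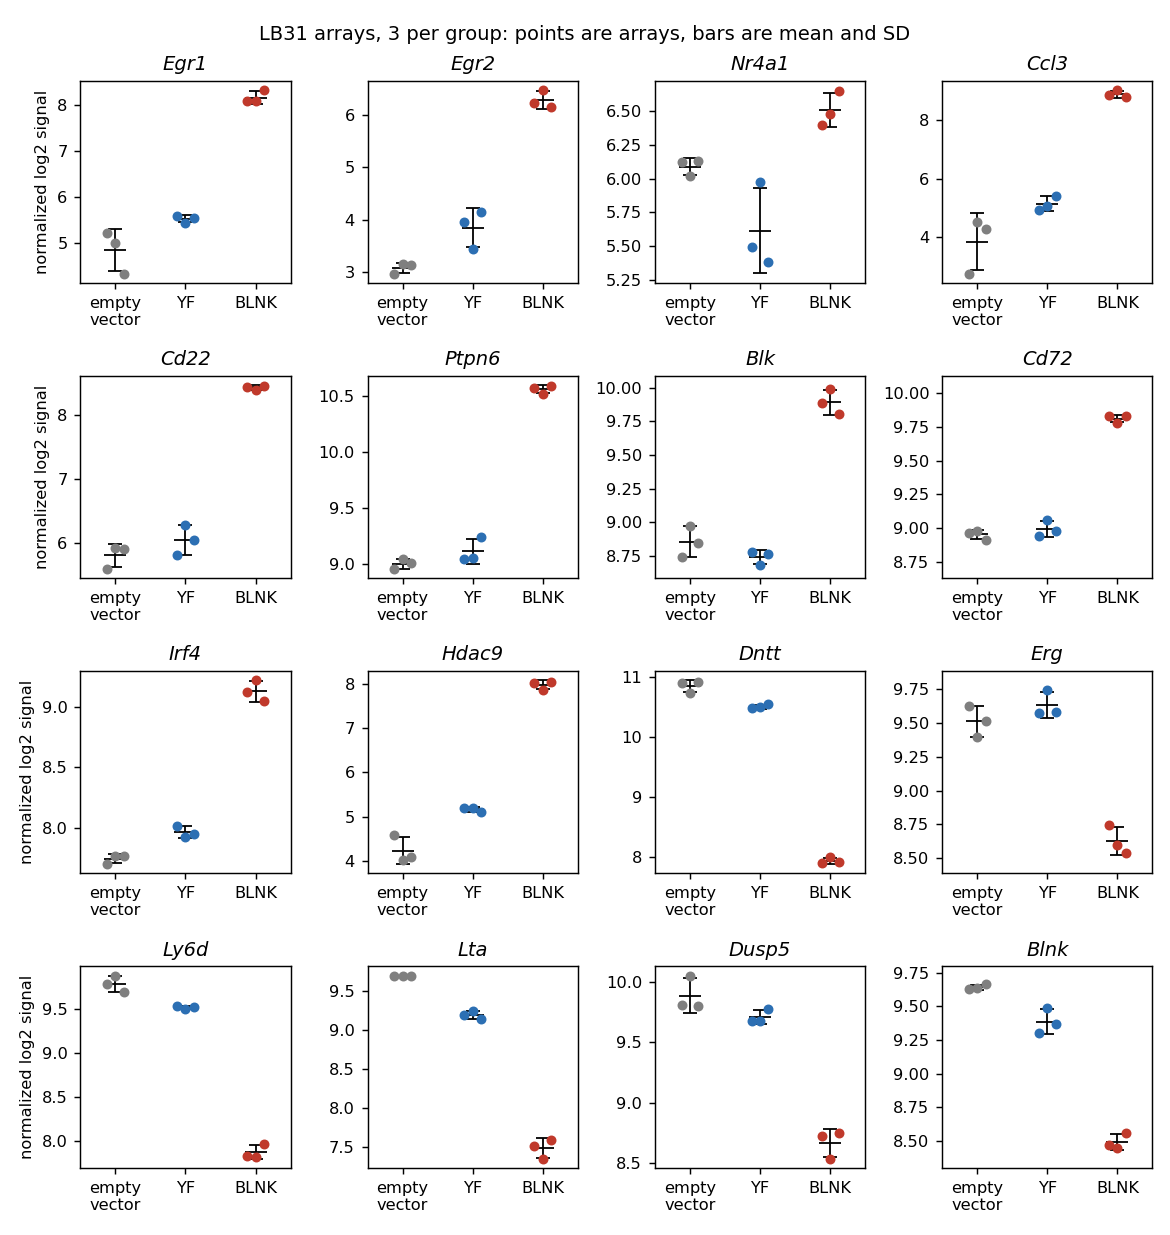
Normalized log2 signal (vertical axis) of 16 genes in LB31 with the empty vector (grey), YF (blue) and BLNK (red). Points are arrays, 3 per group, and bars are the mean and SD, with vertical axes that differ between panels and do not start at 0. The 16 genes were picked among called genes, and in these panels the 3 BLNK points lie apart from the 3 YF points. In Nr4a1 the YF points lie below the empty vector points.

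Several stage genes of the early B lineage fell, and terminal deoxynucleotidyl transferase fell most. Dntt, which encodes the enzyme that adds untemplated bases to immunoglobulin joints in pro-B cells, had the smallest adjusted p in the comparison. It read 7.90, 8.0 and 7.92 with BLNK, 10.47, 10.49 and 10.54 with YF and 10.89, 10.74 and 10.90 with the empty vector. The change was -2.56 ± 0.05, 5.91-fold lower with BLNK (limma adjusted p = 7.81e-12), and the other probe sets changed by -1.94 and -1.58. The rest of the recombination list did not share it: of 7 tested genes only Xrcc6 (Ku70) was also called, at -0.22 (a call that ended on the values as deposited and with median centring), and Rag1, Rag2 and Brwd1 were above the 40th percentile on 0 of 9 arrays. The one immunoglobulin gene called of 5 was Igk at 1.00 ± 0.16, from a probe set whose neighbours for the same symbol were not called and changed by -0.90 and -0.07, so the kappa locus gave no single answer. The heavy chain gene Ighm read 12.69 to 12.72 with BLNK and 12.64 to 12.71 with YF, a change of 0.03 (limma adjusted p = 0.793).

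Among 17 tested surface and stage genes of pro-B and large pre-B cells 7 fell and 1 rose, with a median of -0.18. Ly6d, a surface marker of B-lineage commitment in progenitors, read 7.83, 7.82 and 7.96 with BLNK, 9.53, 9.50 and 9.51 with YF and 9.79, 9.87 and 9.68 with the empty vector, a change of -1.65 ± 0.06 (limma adjusted p = 5.56e-09). Cplx2 fell by 1.03 ± 0.07, Gfra2, a GDNF-family co-receptor, by 0.72 ± 0.08, Csf2rb, the shared beta chain of the interleukin 3 receptor family, by 0.67 ± 0.05, Bst1 (BP-3) by 0.64 ± 0.04 and Cd93 by 0.22, the last in a call that ended under both other scalings. The riser was Il2ra (CD25), a marker of small pre-B cells, which read 6.23, 6.41 and 6.29 against 5.70, 5.77 and 5.54 and rose by 0.64 ± 0.14 (limma adjusted p = 0.0109), a call that ended on the values as deposited and with median centring. Enpep (BP-1) and Il7r, which mark the same stages, were not called, with changes of -0.03 and -0.21. Flt3 had the largest upward change of the list, 1.38, at a dim level (means of 4.18 with BLNK and 2.80 with YF), and was not called either. Of 21 immature and mature B genes tested 1 was higher, Tnfrsf13b, the TACI receptor, by 0.33, a call that ended under both other scalings. Another 5 were lower, among them S1pr4 at -0.95 ± 0.07 and the class II accessory chains H2-Oa at -0.77 and H2-Ob at -0.50. Of all genes 3.94% were higher and 5.1% lower, and the median of this list was 0.03 against 0.02 for all genes.

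Transcription factors moved both ways, 4 higher and 10 lower of 30, where 3.94% of all genes were higher and 5.1% lower. Their median was -0.08. Irf4, which promotes the exit from the pre-B cell cycle and light chain rearrangement, read 9.12, 9.22 and 9.04 with BLNK, 8.02, 7.93 and 7.95 with YF and 7.70, 7.77 and 7.77 with the empty vector. It rose by 1.16 ± 0.07 (limma adjusted p = 1.32e-07), and its second probe set by 0.60. Mef2c, a calcium-responsive factor of the pre-B cell receptor pathway, rose by 0.52 ± 0.08, Bach2 by 0.23 and the coactivator Pou2af1 by 0.15. The calls of these last genes ended on the values as deposited and with median centring. Hdac9, a class IIa histone deacetylase that binds MEF2 factors, was among the largest rises of all genes, with 8.02, 7.86 and 8.04 against 5.21, 5.20 and 5.11, a change of 2.80 ± 0.16 or 6.98-fold (limma adjusted p = 1.85e-07). Its second probe set changed by 1.26 and was not called.

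The factors that fell included several of the early lineage. Erg, an ETS factor of progenitors and pro-B cells, read 8.74, 8.60 and 8.54 with BLNK and 9.58, 9.75 and 9.58 with YF, a change of -1.01 ± 0.07 (limma adjusted p = 1.27e-06), with -1.46 for its other probe set. Bcl11a, a zinc-finger factor needed for B-lineage commitment, fell by 0.97 ± 0.05, and Spib, an ETS relative of PU.1, by 0.74 ± 0.06. Tcf3 (E2A) fell by 0.55, as did its inhibitor Id3 of the early response list, Aff3 by 0.52, Runx1 by 0.47, Foxo1 by 0.41, Lef1 by 0.34, Irf8 by 0.19 and Mef2d by 0.18, and the calls of Lef1, Irf8 and Mef2d ended on the values as deposited, those of Irf8 and Mef2d with median centring too. The call of Mef2d also ended without any 1 of the 6 BLNK and YF arrays. Pax5, Ebf1, Ikzf1 (Ikaros) and Ikzf3 (Aiolos) were not called, with changes of -0.36, 0.06, 0.08 and 0.33, the last at an adjusted p of 0.0513 (limma).

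Secreted factors gave the largest single rise. Ccl3 (MIP-1α), a chemokine made by B cells on receptor engagement, read 8.84, 9.02 and 8.79 with BLNK and 4.93, 5.05 and 5.42 with YF, a change of 3.75 ± 0.34 or 13.5-fold (limma adjusted p = 9.28e-06). The empty vector arrays read 2.74, 4.53 and 4.26. Its close relative Ccl4, which shares a locus and often a regulation with it, changed by 0.34 (limma adjusted p = 0.46), and Ccl9 rose by 0.61 ± 0.06, a call that ended on the values as deposited. Lymphotoxin went the other way. Lta read 7.51, 7.35 and 7.60 with BLNK, 9.20, 9.25 and 9.14 with YF and 9.70, 9.69 and 9.70 with the empty vector, a change of -1.71 ± 0.07 (limma adjusted p = 5.56e-09). Il16 fell by 0.63 and Tgfb1 by 0.28, the latter in a call that ended on the values as deposited. Tnf, the neighbour of Lta, read 5.12, 5.46 and 3.59 against 6.22, 6.26 and 5.53, a change of -1.28 ± 0.37 that passed narrowly (limma adjusted p = 0.0468) and whose call ended without replicate 1 or 3 of BLNK, without replicate 1 or 2 of YF and without replicate 2 or 3 of the empty vector. Of 14 tested genes in this list 2 were higher and 4 lower, where 3.94% of all genes were higher and 5.1% lower. Of 15 NF-kB genes Nfkbie and Tnfaip3, feedback inhibitors of the pathway, fell by 0.70 and by 0.39 while none rose. The call of Tnfaip3 ended without BLNK replicate 1 or 2 or YF replicate 2 or 3.

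Socs3, Pim1 and Cish, textbook targets of STAT5, fell with BLNK. Of 21 tested genes of the interleukin 7 receptor, JAK and STAT5 and their targets 1 was higher and 6 were lower, at a median of -0.20, where 3.94% of all genes were higher and 5.1% lower. The other 14 were not called. Among them Socs2, Pim2, Pim3, Bcl2 and Socs1 had changes of 0.05, 0.33, 0.20, -0.09 and -0.22. Socs3, the feedback inhibitor of JAK kinases, read 7.62, 7.57 and 7.59 with BLNK and 8.55, 8.64 and 8.37 with YF, a change of -0.93 ± 0.10. Pim1, a survival kinase induced by STAT5, fell by 0.78 ± 0.07, Stat4 by 0.69, Cish by 0.52, Osm by 0.51 and Ccnd3 by 0.44. The riser was Ccnd2, at 11.69 to 11.73 with BLNK and 11.27 to 11.30 with YF, so the D cyclins of pre-B cells moved in opposite directions. The call of Ccnd2 ended on the values as deposited, and that of Osm ended in 7 of the other settings, each array of YF left out among them.

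The PI3K and FOXO list was 1 higher and 7 lower of 24, also at a median of -0.20, where 3.94% of all genes were higher and 5.1% lower. Pik3ip1, an inhibitor of PI3K that FOXO factors induce, fell by 1.11 ± 0.16, Tsc22d3 (GILZ) by 0.62, Pik3cg by 0.50, Txnip by 0.48, Rptor by 0.43, Foxo1 by 0.41 and Pik3r1 by 0.30, while Cited2 rose by 0.26. The calls of Cited2 and Pik3r1 ended on the values as deposited, that of Cited2 with median centring too. The medians of this list and of the interleukin 7 list differed from that of all genes by -0.28 to -0.22 in the 3 scalings. Shifts of this kind were not particular to these lists. The same difference was -0.36 to -0.33 for the T and NK markers (7 tested), -0.21 for the interferon list and -0.19 to -0.18 for the pro-B and large pre-B list. Beside the same shares of all genes, 1 of 14 tested p53 targets was higher and 2 were lower. Among 21 D cyclins, CDKs and their inhibitors 2 were higher and 3 lower. Cdkn1a (p21) read 8.36, 8.62 and 8.71 with BLNK and 9.62, 9.34 and 9.62 with YF and fell by 0.96 ± 0.09, and Trp53inp1 fell by 1.00 ± 0.07. Of 14 BCL2 family genes Bmf fell by 0.84 and Bcl2l1 (BCL-XL) by 0.57 while Pmaip1 (NOXA) rose by 0.66, calls that each ended with at least 3 of the 6 BLNK and YF arrays left out in turn. Bcl2, Mcl1 and Bcl2l11 (BIM) were not called, with changes of -0.09, -0.21 and 0.10.

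Of 32 replication genes 2 were higher (Gins1 by 0.23 and Cdt1 by 0.15) and of 33 mitotic genes 1 (Kif2c by 0.28), and none was lower, where 3.94% of all genes were higher. The 3 calls ended on the values as deposited and with median centring. Mki67 read 11.53 to 11.55 with BLNK and 11.61 to 11.65 with YF, a change of -0.09 (limma adjusted p = 0.216). Of 35 genes of the MYC network and ribosome biogenesis 10 were higher, by 0.14 (Myc, Srm) to 0.33 (Rrp1b), and 3 lower. The 10 rises were all lost on the values as deposited and with median centring, and Polr1b and Wdr12 turned to -0.015 and -0.0084 on the values as deposited. The falls were Mxd4, an antagonist of MYC, by 0.98 ± 0.09, Mycn by 0.55 ± 0.05 and Nme1 by 0.18, the last of which ended under both scalings.

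Glycolysis had Fbp1, the gluconeogenic bisphosphatase, at 0.74 ± 0.11 (a call that ended on the values as deposited) and Hk1 at -0.45 ± 0.06 among 19 tested. The ATF4 list had Psat1 at 0.19 and Ddit4 at -0.45 among 27, and sterol and fatty acid synthesis had Cyp51 at 0.22, with Fasn, Fdps and Elovl6 at -0.45, -0.30 and -0.29, among 23. Of these, the calls of Psat1, Cyp51, Fdps and Elovl6 ended under both other scalings. Of 23 interferon response genes 5 fell and none rose, at a median of -0.19, where 5.1% of all genes fell. The falls included the guanylate-binding proteins. Gbp2 fell by 1.1 ± 0.10 and Gbp3 fell by 0.68 ± 0.08, while Xaf1, Psmb8 and Psmb9 changed by -0.31, -0.21 and -0.20 in calls that ended on the values as deposited and, for Psmb8 and Psmb9, with median centring. The classical responders Ifit2, Ifit3 and Rsad2 were not called, with changes of -0.12, 0.45 and 0.36. Homing genes had Cxcr4, the CXCL12 receptor, at 0.43 ± 0.09 (a call that ended under both other scalings) and Itga4 at -0.48 ± 0.07 among 14, and of 3 C/EBP genes none was called.

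**Figure D3:**
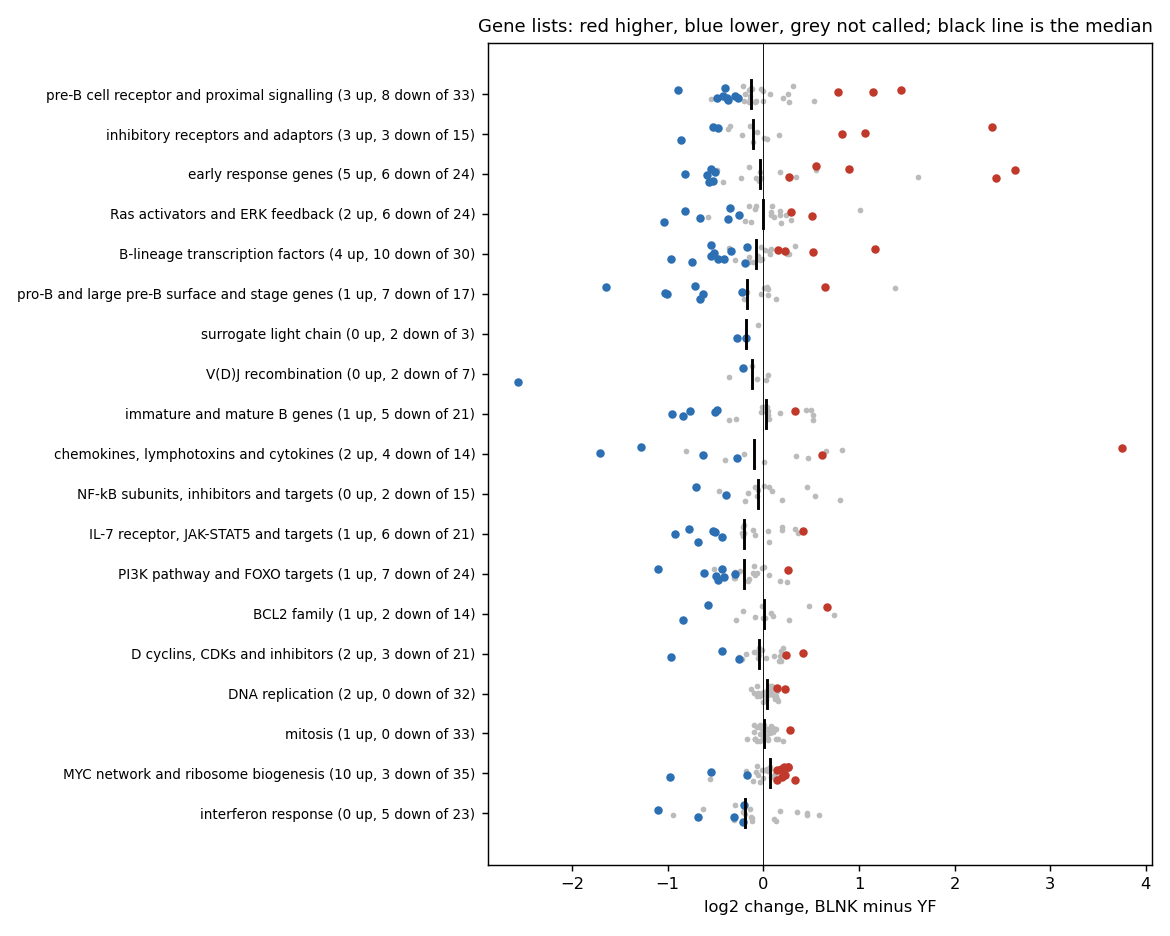
Log2 change, BLNK minus YF (horizontal axis), of the tested members of 19 gene lists, 1 row per list and 1 point per gene. Red points were called higher, blue points lower, grey points were not called, and the black bar is the list's median. Medians lie between -0.20 and 0.07 while single genes such as Ccl3, Egr1, Cd22 and Dntt lie far outside.

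The lysozyme genes Lyz1 and Lyz2 fell. Lyz1 read 4.80, 4.67 and 4.72 with BLNK, 7.21, 7.27 and 7.40 with YF and 7.68, 7.64 and 8.0 with the empty vector, a change of -2.56 ± 0.12 (limma adjusted p = 3.16e-08). Lyz2 read 5.12, 4.94 and 4.80 against 7.11, 6.86 and 6.96, a change of -2.02 ± 0.12. The genes are near-identical copies and Lyz1 was read by a probe set that can cross-hybridize, so their signals cannot be separated. Of 13 macrophage and monocyte markers tested 3 were lower and 1 higher, at a median of 0.01, where 5.1% of all genes were lower and 3.94% higher. F13a1 also fell, by 0.45 (a call that ended when single BLNK or YF arrays were left out), and Ctss rose by 0.55 (a call that ended on the values as deposited). Marco, a scavenger receptor, changed by -1.55 without passing (limma adjusted p = 0.0526), from a YF mean of 4.13. Of the 20 markers with a probe set, 6 were above the 40th percentile on all 9 arrays, Ctss, Cybb and Csf1r among them. Mrc1, Cd68, Adgre1 and Clec7a were above it on 8, and Mpeg1, C1qa, C1qb, Lgals3, Fcgr3 and Itgam on 0 of 9. The 20 markers were also summed on the linear scale after quantile normalization. The sum ran from 858 to 932 with BLNK, from 927 to 956 with YF and from 1041 to 1161 with the empty vector. In the BLNK and YF groups its largest part came from Ctss, with mean log2 signals of 9.24 and 8.69. The rise of Ctss ran against the falls of Lyz1 and Lyz2 in the sum, so the sum does not show how the other markers changed. The part of such cells in the lysozyme change was not tested. Plasmacytoid dendritic cell markers, which include Ly6d and Spib, summed on the same normalized scale to 2583 to 2676 with BLNK and 3585 to 3699 with YF. No member other than Ly6d and Spib was called among 10 tested. No T and NK marker of 7 and no neutrophil marker of 7 was called, where 9.04% of all genes were, so lists this short would hold few calls. The T and NK markers had a median of -0.31, and 1 of the 7 was called lower under each of the other scalings. Of 9 megakaryocyte and erythroid markers 1 was called, Tfrc, the transferrin receptor, at -0.14 (a call that ended under both other scalings). The plasma cell list had Irf4, Sdc1 (by 0.58) and Pou2af1 higher and Xbp1 (by 0.36) and Mzb1 (by 0.19) lower, of 12, and all but Irf4 lost the call under both other scalings.

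Outside the lists, large rises came from genes of varied function. Serpinb1a, an intracellular inhibitor of serine proteases, read 9.75, 9.81 and 9.86 with BLNK and 8.0, 7.79 and 7.83 with YF, a change of 1.93 ± 0.10 with 1.92 for its second probe set. Trav9d-3, a T cell receptor alpha variable gene, rose by 3.10 ± 0.40. Its probe set belongs to a family of near-identical segments, 2 further probe sets changed by 4.08 and 3.22, and the copy that gave the signal is uncertain. Lgr5, the R-spondin receptor, rose by 1.76 ± 0.19, Acbd7 by 1.75 ± 0.15, the insulin receptor substrate Irs1 by 1.59 ± 0.19, Shroom3, an actin regulator, by 1.57 ± 0.16 and Rgl1, a Ral exchange factor, by 1.55 ± 0.18. Klhdc2, a substrate receptor of a ubiquitin ligase, was among the 5 smallest adjusted p of the rises, at 0.96 ± 0.05 (limma adjusted p = 4.42e-08). From a YF mean under the filter level, Cp (ceruloplasmin), Mctp2 and AF067061 rose by 3.49, 1.81 and 1.78, and Klhl32 by 3.14 on a probe set whose partner gave -0.46.

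Large falls outside the lists were Cdh17, an intestinal cadherin also found on B cells, from 7.05, 7.39 and 7.21 with YF to 5.32, 5.35 and 5.00 with BLNK (-1.99 ± 0.14), and S1pr3, a sphingosine-1-phosphate receptor (-1.66 ± 0.16). Cyp4f18, a leukotriene-inactivating cytochrome, fell by 1.24 ± 0.05 (limma adjusted p = 5.56e-09). The placental growth factor Pgf fell by 1.5 ± 0.18, Nlrc3, a negative regulator of innate signalling, fell by 1.49 ± 0.25 and Ifit1bl1 fell by 1.46 ± 0.18. Sytl1 fell by 1.75 ± 0.40 and Sh3tc1 fell by 1.41 ± 0.34, with uneven BLNK arrays. The 3 arrays read 3.40, 3.61 and 5.30 for Sytl1 and 3.52, 4.46 and 3.80 for Sh3tc1, and the call of Sytl1 ended without BLNK replicate 1 or 2 or YF replicate 3, that of Sh3tc1 without BLNK replicate 1 or 3 or YF replicate 1 or 3. Inhbb, Adamtsl3, Eda, Ddx25 and Rpl3l had changes of -1.76 to -1.54, to a BLNK mean under the filter level. Of these, the calls of Adamtsl3, Eda and Rpl3l ended when single BLNK arrays were left out, and those of Adamtsl3 and Eda under both other scalings.

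The empty vector arrays place the YF cells. YF differed from the empty vector in 45 genes (0.346% of those tested), 17 higher (0.131%) and 28 lower (0.215%), and BLNK differed from it in 2073 (15.9%), 958 higher (7.36%) and 1115 lower (8.57%). These comparisons share arrays with each other and with the BLNK to YF comparison, so their values stand side by side with no overlap drawn. The 45 calls depended on single arrays. Without empty vector replicate 1 the count was 1116, without replicate 2 or 3 of that group 15 and 2, and without YF replicate 1, 2 or 3 it was 4, 1 and 1. On the values as deposited it was 597 and with median centring 1402. Of the 45 called genes, 3 (Mycn, Syt7 and 1600014C10Rik) also changed by at least 2-fold.

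Mycn, the neural relative of MYC, stood out. It read 13.22, 13.23 and 13.22 with the empty vector, 11.46, 11.62 and 11.61 with YF and 10.94, 11.01 and 11.08 with BLNK, a change of -1.66 for YF against the empty vector (limma adjusted p = 3.6e-10) and of -0.55 for BLNK against YF. Its other probe sets changed by -0.20 and -0.17 between BLNK and YF and were not called. Of the genes with large BLNK to YF changes, Hdac9 was higher with YF than with the empty vector by 0.94 (limma adjusted p = 0.0339) and with BLNK by 3.74. Acbd7 was higher by 0.92 (limma adjusted p = 0.0236) and by 2.67. Dntt was lower with YF by 0.34 (limma adjusted p = 0.0236), as its change against the empty vector was -0.34 with YF and -2.90 with BLNK. Lta changed by -0.50 with YF (limma adjusted p = 0.019) and by -2.21 with BLNK. Tcf3 ran differently, higher with YF by 0.36 (limma adjusted p = 0.033) and, with BLNK, -0.19 against the empty vector (limma adjusted p = 0.056). For Egr1, Egr2, Ccl3, Cd22, Ptpn6 and Irf4 the YF change against the empty vector was 0.68, 0.77, 1.29, 0.24, 0.11 and 0.22, none of them called, and the BLNK change was 3.30, 3.20, 5.04, 2.63, 1.55 and 1.38.

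Marrow arrays that share no sample with LB31 give an outside view of the same adaptor. They hold B220-positive cells sorted from bone marrow of Blnk knockout and wild-type mice, 3 arrays each. The fit also took in arrays of LAP transgenic marrow with and without Blnk, 12 arrays in all. Those arrays shared in the normalization, the filter and the estimate of the spread, but not in the contrast. The same test over 13338 genes called 2278 (17.1%) between knockout and wild-type, 1117 higher in the knockout (8.37%) and 1161 lower (8.7%). Sorted marrow mixes B-lineage stages, in which fewer cells of a stage and less RNA per cell cannot be told apart. Of 510 genes higher with BLNK in LB31 that were tested in both fits, 109 were lower in knockout marrow (21.4%, and 10.0% of the knockout-lower list) and 50 were higher (9.80%). Of 657 genes lower with BLNK, 176 were higher in knockout marrow (26.8%, and 17.1% of the knockout-higher list) and 74 lower (11.3%). Over all 12045 genes in both fits the shares were 9.01% lower and 8.57% higher. Most were not called in marrow, 351 of the 510 rises and 407 of the 657 falls. Among called changes of at least 2-fold, 22 of 49 rises were lower in the knockout, 5 higher and 22 not called. Of 40 such falls 10 were higher, 6 lower and 24 not called.

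Part of the leading genes thus ran in mirror image. With the log2 change of knockout minus wild-type, Hdac9 changed by -1.39, Egr1 by -1.20, Egr2 by -1.36, Nr4a1 by -1.03, Serpinb1a by -1.40, Ptpn6 by -0.99, Cd22 by -0.79, Cd72 by -0.69, Blk by -0.63, Irf4 by -0.40, Btla by -1.96 and Il2ra by -1.80, each called. In the other direction Dntt changed by 2.07, Erg by 3.24, Gfra2 by 2.43, Cplx2 by 1.63, Bst1 by 1.56 and Nlrc3 by 1.85. Some did not. Ccl3 was higher in the knockout by 1.32 (limma adjusted p = 0.037) and Lgr5 by 0.72, and Dusp5, Ly6d and S1pr3, which fell with BLNK in LB31, were lower in the knockout too, with changes of -2.02, -0.95 and -1.59. Lta, Lyz1, Lyz2 and Cdh17 were not called in marrow, and the surrogate light chain genes Vpreb1 and Igll1, higher in the knockout by 1.6 and 2.23, changed by -0.05 and -0.19 in LB31.

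**Figure D4:**
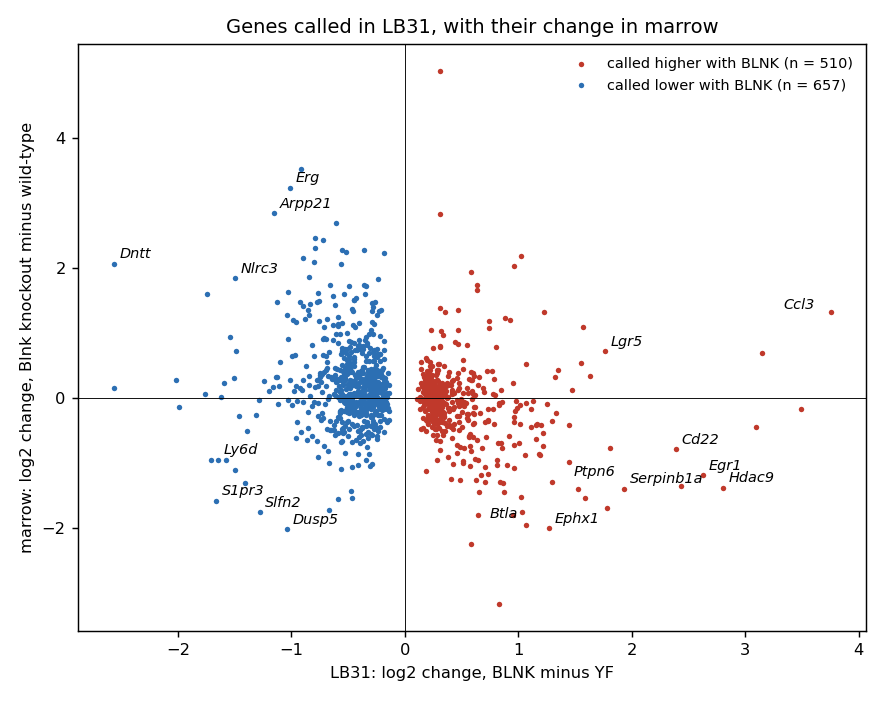
Log2 change of Blnk knockout minus wild-type marrow (vertical axis) against log2 change of BLNK minus YF in LB31 (horizontal axis) for genes called in LB31 and tested in both fits. Red points are the 510 called higher and blue points the 657 called lower with BLNK in LB31. Dntt, Erg and Arpp21 lie upper left and Hdac9, Egr1, Serpinb1a and Btla lower right, while Ccl3 and Lgr5 (upper right) and Dusp5, Ly6d, S1pr3 and Slfn2 (lower left) lie in the other quadrants.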

How the data were processed

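Expression was measured on 21 arrays of 7 groups, 3 arrays each. The authors deposited 1 intensity per probe set on a linear scale, made with MAS5 per the submitters' processing notes, which give no version. Whether arrays were scaled to one target: not given in the sources used here. Of 45101 probe sets, 34945 had 1 gene symbol in the platform annotation, 932 had several and were not named, and 9160 had none. Here 4 was added to each deposited intensity, log2 was taken, and the 9 LB31 arrays were quantile normalized. A probe set entered if it was above the 40th percentile of the array's signals on 3 or more arrays, and a gene was represented by its probe set of highest mean over all 21 arrays. A log2 change understates the fold of dim genes. Groups were compared two-sided with limma 3.58.1 (R 4.3.3), lmFit and eBayes with an intensity trend, and called at an adjusted p under 0.05. All 3 LB31 groups shared 1 estimate of the spread, and marrow was fitted apart on 12 arrays, those of LAP transgenic marrow included. The fit was tested on simulated data with independent noise for each gene and array. Such data hold no difference in scale between arrays, so they cannot show how far the calls depend on scaling. The number of arrays limits the precision.

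Named genes were the 12 largest called rises and falls with groups that do not overlap and a lower mean above the filter level, the 5 largest each way with a lower mean under it, the 5 smallest adjusted p each way, Blnk and Cebpb, and members of 33 gene lists. The comparison, the lists and the tests were chosen with earlier results of these data known. Alternatives covered scaling, the added constant, the filter, the arrays fitted, the probe set, the trend, a replicate block and each array left out. The CArG motif was added after the data were seen.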

Additional observations from a re-analysis of the deposited data

How the results depend on the processing

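The count of genes called between BLNK and YF, 1177 (513 higher, 664 lower), became 553 (66 higher) on the values as deposited, 682 (131 higher) with arrays centred on their median, 1839 (922 higher) with only the BLNK and YF arrays in the fit, and 680 (263 higher, 417 lower) without the intensity trend. With each LB31 array left out in turn it ran from 771 (without YF replicate 2 or 3) to 1593 (without empty vector replicate 1), the genes higher from 297 (without BLNK replicate 1) to 772, and the genes lower from 464 to 821. Another added constant, filter or probe set kept the counts within 1.5 times. BLNK against the empty vector gave 505 genes as deposited, against 2073, and 1480 to 2811 with 1 array left out. YF against the empty vector gave 597 as deposited and 1402 with median centring, against 45, and 1 to 1116 with 1 array left out. Knockout against wild-type marrow gave 3592 as deposited, against 2278, and 1595 to 1959 with 1 array left out. The cause of these shifts was not tested. Of the 1177 genes, 34 changed sign as deposited and 0 with median centring. Of 160 genes named or called in a list, 99 kept their direction and call as deposited, 111 with median centring and 113 without the trend. Reversals among them were Polr1b at -0.015 and Wdr12 at -0.0084 as deposited, and Klhl32 at -0.46 with its other probe set. Calls that ended with single BLNK or YF arrays left out, and are not so described elsewhere, were those of Siglecg, Rasal3, Elk4, Ier2, Sos2, Il2ra, Xrcc6, Bach2, Pou2af1, Cdk6, Cdkn2d, Cdt1, Gins1, Kif2c, Psmb9, Xaf1, Sdc1, Tfrc, Cyp51, AF067061 and, in the MYC list, Myc, Srm, Nop16, Polr1b, Wdr12 and Wdr43. The calls of Cdk6, Cdkn2d and Pmaip1 also ended under both other scalings.

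The replicate numbers did not pair the arrays. Deviations of same-numbered BLNK and YF arrays from their group means correlated at 0.000348, -0.00417 and 0.0180 over genes. With the replicate number as a block 1155 genes were called (498 higher, 657 lower), 1085 of them among the 1177, with 2061 for BLNK and 38 for YF against the empty vector and 2200 in marrow.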

Other observations

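Several genes outside the lists, picked after their values were seen, also differed between BLNK and YF by more than the spread between arrays. Plek (pleckstrin), a major substrate of protein kinase C in blood cells, read 8.60, 8.63 and 8.52 with BLNK and 7.48, 7.57 and 7.36 with YF, a rise of 1.11 ± 0.07 (limma adjusted p = 5.42e-07). Rgs2, a regulator of G protein signalling, rose by 1.15 ± 0.08, Ephx1, the microsomal epoxide hydrolase, by 1.27 ± 0.11 and Rhoq, a CDC42-related GTPase, by 1.18 ± 0.09. Falls of like size were those of Akap12, a kinase-anchoring scaffold, by 1.19 ± 0.07, Selenop, a secreted selenium carrier, by 1.13 ± 0.06, and Zmiz1, a transcriptional coactivator, by 1.03 ± 0.05. In knockout against wild-type marrow Ephx1 changed by -2.01, Rhoq by -0.87 and Zmiz1 by 0.91, each called, while Plek, Rgs2, Akap12 and Selenop were not called.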
